A study of Mus musculus with 8 samples.

Results

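The genes described here are the chromosomal neighbours of Men1, the gene targeted in a knockout mouse. They are the protein-coding genes whose start lies between base 3000000 and base 10000000 of chromosome 19 (build GRCm38), leaving out Men1 itself, and they number 222 of the 54532 gene rows counted. The RNA sequenced was that of peritoneal macrophages, collected after thioglycollate broth had been used to elicit leukocytes. There were 3 M_KO libraries (M_KO_5944, M_KO_5645 and M_KO_5642), 3 M_WT libraries (M_WT_5643, M_WT_6258 and M_WT_6255), 1 F_KO library (F_KO_5639) and 1 F_WT library (F_WT_5638). KO stands for a Men1 knockout and WT for wild type, and all 8 libraries came from cells elicited with the broth. What M and F stand for is not stated, so both letters are kept. The sources used here give no strain, age, Men1 allele or Cre driver. The numbers in the titles differ between libraries, but no label says that they mark separate litters or days, so p-values measure the spread between these libraries, which may be partly technical.

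Men1 encodes menin, a scaffold protein that holds histone H3K4 methyltransferase complexes on chromatin. It lies in the gene-dense proximal part of chromosome 19, where genes of unrelated function stand close together and often share borders. Genes beside a targeted locus are of general interest in knockout mice, because they are inherited together with the altered allele. Where the knockout was made in cells of one strain and crossed into another, they can also differ in sequence from the control, and an inserted cassette can alter transcription nearby.

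The closest neighbour is Map4k2, whose start lies 243 bases past the end of Men1 on the same strand (Map4k2 chr19:6341135-6355615, Men1 chr19:6334979-6340891, both plus strand). Rasgrp2 (chr19:6399340-6415216, plus strand) starts 58.4 kb past it. The promoter windows of both are shown because these were the genes within 0.1 Mb whose M_KO and M_WT libraries did not overlap. Each window runs from 250 bases before to 50 bases after a start site of RefSeq (GRCm38.p6, plus strand), and capitals mark the GC box GGGCGG or its reverse complement CCGCCC, read on both strands with overlapping matches counted.
Map4k2 chr19:6340910-6341209: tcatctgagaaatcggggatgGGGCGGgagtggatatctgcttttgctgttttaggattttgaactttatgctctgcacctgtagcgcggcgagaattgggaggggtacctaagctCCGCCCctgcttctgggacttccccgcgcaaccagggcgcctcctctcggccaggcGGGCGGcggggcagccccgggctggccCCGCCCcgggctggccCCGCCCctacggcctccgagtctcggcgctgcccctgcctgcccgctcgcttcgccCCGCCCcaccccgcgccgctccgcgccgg
Rasgrp2 chr19:6399625-6399924: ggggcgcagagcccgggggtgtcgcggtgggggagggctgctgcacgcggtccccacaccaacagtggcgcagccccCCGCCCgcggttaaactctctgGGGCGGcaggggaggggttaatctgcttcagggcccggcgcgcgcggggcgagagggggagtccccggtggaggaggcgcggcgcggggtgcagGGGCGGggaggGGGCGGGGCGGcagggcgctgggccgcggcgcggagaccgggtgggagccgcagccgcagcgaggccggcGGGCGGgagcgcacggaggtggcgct
The Map4k2 window begins 18 bases after the last base of Men1, holds 6 GC boxes and is 70.3% G and C. The Rasgrp2 window is the first of its windows along the chromosome, also holds 6 GC boxes, a pair of which overlap, and is 80.0% G and C. Of the 222 genes, 161 had a RefSeq window, and 101 of these windows (62.7%) held at least 1 GC box, against 9622 of 27025 genes (35.6%) in the whole table. The median G and C content of the windows was 60.3% for the Men1 neighbours and 52.7% for the whole table.

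Men1 transcript was lower in every M_KO library. It was at 8.18, 6.52 and 8.34 CPM (read counts scaled to library size, with TMM factors) in M_KO_5944, M_KO_5645 and M_KO_5642, against 25.9, 17.2 and 21.5 CPM in M_WT_5643, M_WT_6258 and M_WT_6255, so the groups did not overlap. The M_KO mean was 35.7% of the M_WT mean (log2 fold change -1.49, SE 0.21, edgeR adjusted p = 0.284, DESeq2 adjusted p = 4.49e-06). An exact two-sided permutation test of 3 against 3 libraries gave p = 0.1, the smallest this design allows. F_KO had 11.8 CPM of Men1 and F_WT had 18 CPM. Every KO library thus retained some Men1 transcript, from exons that a count per gene cannot tell. Total counts ran from 18206427 to 22853583 per library. The window took between 1.55% and 1.99% of each library's counts.

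Most neighbours of Men1 were expressed in these cells. Of the 222 genes, 161 passed the expression filter of edgeR, which looks at no group difference but can pass a gene on the strength of 1 group. Another 42 had too few counts, at most 193 over all 8 libraries, and 19 had none. The untested genes included all 10 organic-anion transporter genes of the Slc22a family in the window, and Nrxn2, a synaptic adhesion gene 0.0838 Mb from Men1. Among tested members the median level over the 8 libraries was 8.98 FPKM (fragments per unit of gene length and of sequencing depth), and 11 exceeded 100 FPKM. Fth1, the heavy chain of the iron store ferritin, had the highest level per length with 4863.5 FPKM, followed by Fau, a ribosomal protein made as a fusion to a ubiquitin-like protein, with 697.9 FPKM and the actin-severing protein Cfl1 with 387.8 FPKM.

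No neighbour of Men1 passed the edgeR test across all genes. Men1 itself did not pass it either (edgeR adjusted p = 0.284), so an absence of calls says little about its neighbours. With an edgeR adjusted p under 0.05, 0 of 161 members were called, where 0.0220% of the 13646 genes tested were (3 genes), and the smallest edgeR adjusted p of a member was 0.434. At an unadjusted edgeR p under 0.05 there were 20 members, 14 higher and 6 lower in M_KO, beside 9.56% of all genes (5.33% higher and 4.22% lower). DESeq2 called 1 member, Pcna-ps2, beside 1.19% of all its tested genes, with an adjusted p of 0.0397. The authors' deposited table lists 198 of the members and calls 0 of them, where it calls 0.553% of its rows, and its smallest adjusted p for a member is 0.0524. Fitted log2 fold changes ran from -3.32 to 1.11, and 129 of 161 were smaller than 0.5 in size.

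Small differences in the same direction were nevertheless common. In 30 members (18.6%) every M_KO library lay above every M_WT library, beside 8.99% of all genes tested, and in 7 members (4.35%) every M_KO library lay below, beside 7.14%. On the rest of chromosome 19 the counts were 22 higher and 22 lower of 263 protein-coding genes tested (8.37% each). The median log2 fold change was 0.08 over the members, 0.01 over all genes and -0.02 over the rest of the chromosome. The 30 higher members had log2 fold changes between 0.11 and 1.11.

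**Figure D1:**
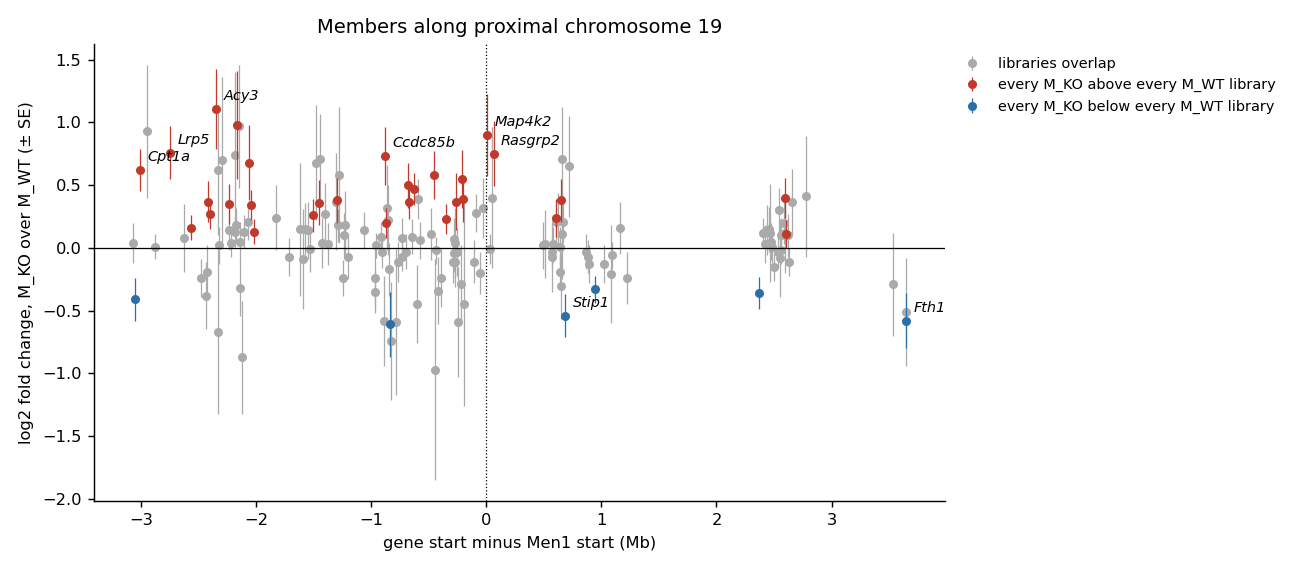
Log2 fold change of M_KO over M_WT (vertical axis, bars are standard errors) of each tested member against the distance of its start from the start of Men1 in Mb (horizontal axis), with colours for genes whose 3 M_KO libraries all lay above or all below the 3 M_WT libraries. Of the 30 higher genes, 24 lie on the centromeric side and 6 on the telomeric side, and Pcna-ps2, at -3.32, is left off the plot.

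Most of the higher members lay on the centromeric side. On the centromeric side, towards lower coordinates, 24 of 105 tested members were higher and 2 were lower without overlap (22.9% and 1.90%), with a median log2 fold change of 0.10. On the telomeric side the counts were 6 higher and 5 lower of 56 (10.7% and 8.93%), with a median of 0.03. Within 0.1 Mb of Men1, 2 of 7 tested members (28.6%) were higher and 0 lower, with a median of 0.32 that was 0.13 without M_KO_5645 and 0.12 without M_WT_6258. With 7 genes, each of these medians is the value of a single gene, Cdc42bpg, whose groups overlapped. Between 0.1 and 0.5 Mb the counts were 5 higher (23.8%) and 0 lower of 21, with a median of -0.03. Between 0.5 and 1 Mb they were 7 higher (15.6%) and 3 lower of 45 (median 0.02), and beyond 1 Mb 16 higher (18.2%) and 4 lower of 88 (median 0.13). Each share of higher members stands beside 8.99% of all genes tested. The difference between the bands or sides was not tested.

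The nearest gene, Map4k2, and the fourth tested gene on the same side, Rasgrp2, were higher in every M_KO library. Map4k2 is a germinal-centre kinase of the Ste20 family, which acts upstream of JNK signalling. It was at 35.3, 78.2 and 35.2 CPM in M_KO_5944, M_KO_5645 and M_KO_5642, against 29.8, 22.4 and 27.1 CPM in M_WT_5643, M_WT_6258 and M_WT_6255. The lowest M_KO and the highest M_WT library were thus close, and M_KO_5645 stood far above the other 5 (log2 fold change 0.90, SE 0.33, edgeR adjusted p = 0.480). Without M_KO_5645 the log2 fold change of Map4k2 was 0.41.

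Rasgrp2 is an exchange factor that activates the small GTPase Rap1 and through it integrins. It was at 34.4, 56.2 and 28.0 CPM in M_KO_5944, M_KO_5645 and M_KO_5642, against 24.8, 23.4 and 22.1 CPM in M_WT_5643, M_WT_6258 and M_WT_6255 (log2 fold change 0.75, SE 0.26, edgeR adjusted p = 0.477). M_KO_5645 was again the highest, and without it the log2 fold change was 0.41. In the F pair, Map4k2 was at 57.9 CPM in F_KO and 45.7 CPM in F_WT, while Rasgrp2 was at 29.5 CPM in F_KO and 35.6 CPM in F_WT.

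M_KO_5645 also held more B cell transcript than the other M libraries. The 4 B cell markers Cd79a, Cd79b, Ms4a1 and Pax5 were detected in every library, none at 0, and summed to between 64.4 and 189.2 CPM in M_KO, between 44.5 and 113.4 CPM in M_WT, 215.1 CPM in F_KO and 133.4 CPM in F_WT. The 189.2 CPM was in M_KO_5645 and the 113.4 CPM in M_WT_5643, and all 4 markers had overlapping M groups. The sum in M_WT_5643 was above those in M_KO_5944 (95.2 CPM) and M_KO_5642 (64.4 CPM), whereas its Map4k2 and Rasgrp2 were below both. The sums in F_KO and F_WT were also above those in M_KO_5944 and M_KO_5642, and there Map4k2 was above both. Rasgrp2 was above both in F_WT and between them in F_KO. A pair of leukocyte genes of the window, singled out after their values were seen, was also highest in M_KO_5645 among the M libraries. Ptprcap, which binds the phosphatase CD45, was at 3.24, 7.71 and 3.71 CPM in M_KO and 5.73, 2.02 and 0.96 CPM in M_WT, and Tbc1d10c, a Ras and calcineurin inhibitor, at 6.08, 10.8 and 3.16 CPM in M_KO and 4.80, 3.04 and 2.33 CPM in M_WT. Both had overlapping groups, and their counts are uncertain, since 100% of the exon bases of Ptprcap and 35.5% of those of Tbc1d10c are shared with another gene. For Ccdc88b, another leukocyte gene of the window, the log2 fold change was 0.03 with all M libraries and 0.06 without M_KO_5645. In bulk RNA, more cells of a type and more RNA per cell cannot be told apart, and the part of B cells in the values of Map4k2 and Rasgrp2 was not tested.

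**Figure D2:**
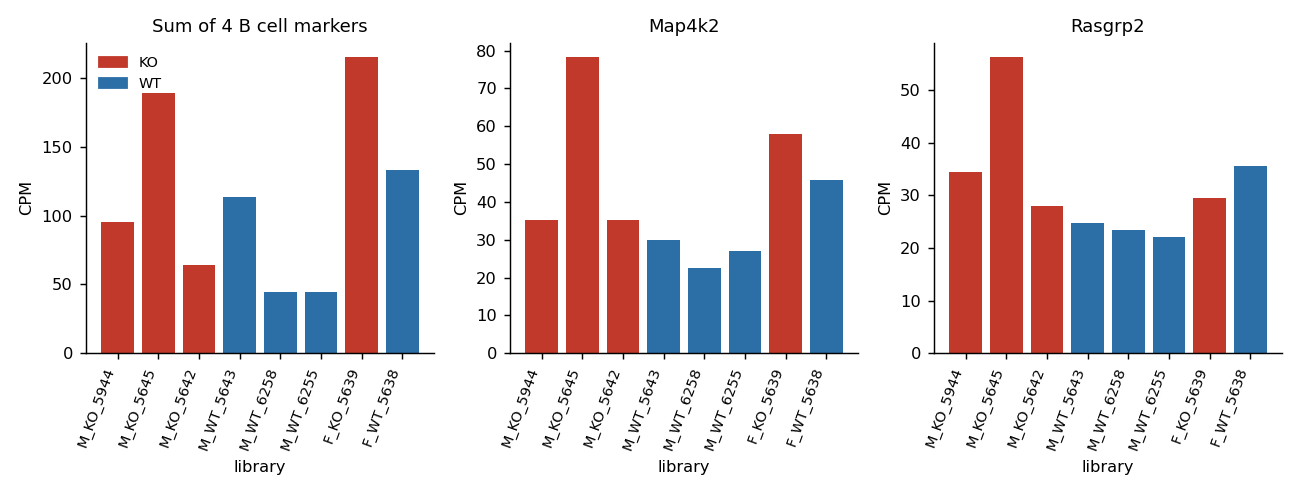
Bars give the CPM of each library for the sum of the 4 B cell markers (left), Map4k2 (middle) and Rasgrp2 (right), in red for KO and blue for WT. M_KO_5645 has the tallest bar of the 6 M libraries in each panel (189.2, 78.2 and 56.2 CPM). M_WT_5643 stands above M_KO_5944 and M_KO_5642 in the left panel (113.4 against 95.2 and 64.4 CPM) and below both in the other panels. F_WT stands above M_KO_5944 and M_KO_5642 in every panel. F_KO stands above both in the left and middle panels and between them in the right panel.

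The other 5 tested genes within 0.1 Mb of Men1 had overlapping groups. Sf1, which binds the intron branch point before splicing, differed least (270.3, 301.0 and 245.1 CPM in M_KO, 270.5, 270.7 and 277.7 CPM in M_WT, log2 fold change -0.01). Pygm, muscle glycogen phosphorylase, was at low levels (0.68, 2.02 and 1.30 CPM in M_KO, 1.68, 0.59 and 0.76 CPM in M_WT). Cdc42bpg, a kinase bound by the GTPase Cdc42, was at 26.3, 38.5 and 27.0 CPM in M_KO and 28.4, 17.4 and 27.5 CPM in M_WT.

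Cdc42bpg ends 9.3 kb before Men1 begins, so the gene on the other border of Men1 had overlapping libraries (log2 fold change 0.32, SE 0.24, edgeR adjusted p = 0.689). Ehd1, an ATPase of endocytic recycling, had the highest level per length of the nearest 12 genes, 349.1 FPKM over the 8 libraries. It was at 1385.4, 988.8 and 1282.1 CPM in M_KO and 1461.7, 1388.2 and 1338.8 CPM in M_WT (log2 fold change -0.20). Atg2a, a lipid-transfer protein of growing autophagosomes, was at 139.5, 169.7 and 156.7 CPM in M_KO and 110.6, 121.4 and 150.0 CPM in M_WT (log2 fold change 0.28). M_WT_6255 was above 1 M_KO library for Atg2a, and M_KO_5944 was above M_WT_6255 for Ehd1.

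Farther out, Arl2, a small GTPase needed for tubulin folding, was higher in every M_KO library. It was at 8.63, 8.38 and 9.64 CPM in M_KO and 7.46, 6.55 and 6.29 CPM in M_WT, and at 8.48 CPM in F_KO and 5.91 CPM in F_WT (log2 fold change 0.39 in M, edgeR adjusted p = 0.546). Its body overlaps that of Batf2, an interferon-induced transcription factor of macrophages, on the opposite strand, and no source used here gives the strand setting of the counting. Batf2 varied more within than between the groups, with 16.8, 3.10 and 1.74 CPM in M_KO and 14.0, 7.73 and 7.56 CPM in M_WT.

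The remaining genes of the nearest 12 also overlapped. Ppp2r5b, a regulatory subunit of protein phosphatase PP2A, had a log2 fold change of -0.11. On the telomeric side, the histone H3 kinase gene Rps6ka4 had a log2 fold change of 0.02 and Ccdc88b, a leukocyte protein related to HOOK adaptors, one of 0.03. For both, the sign turned when M_KO_5944 or M_WT_6258 was left out.

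**Figure D3:**
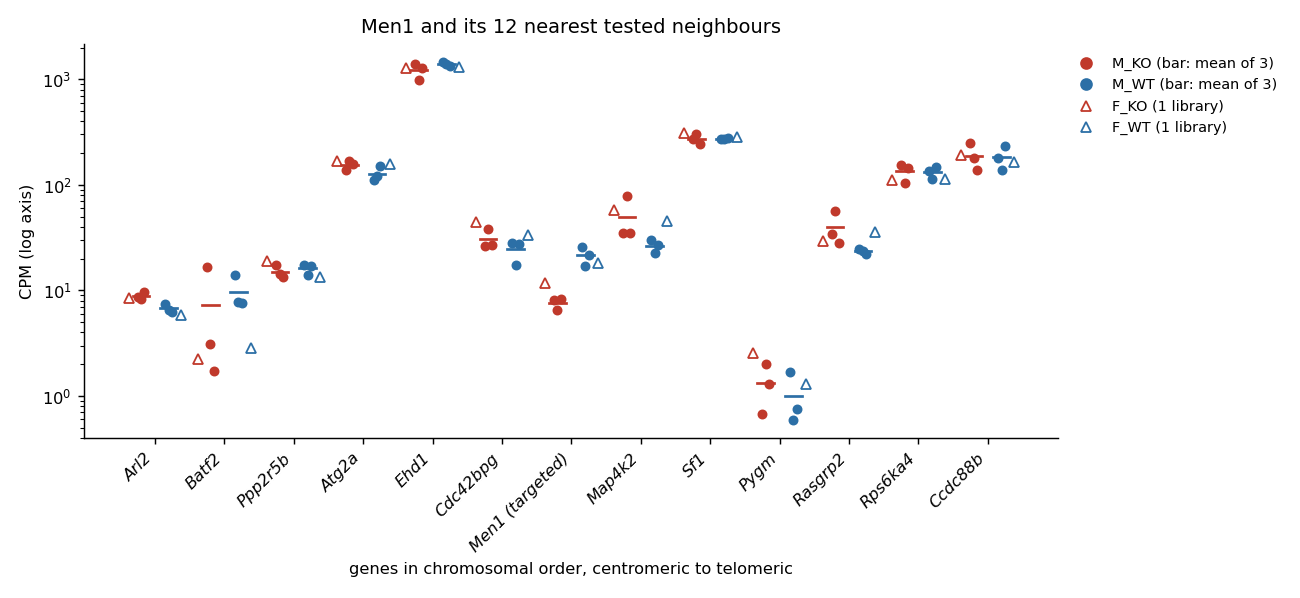
CPM on a log axis in each library for Men1 and the 6 nearest tested genes on each side, in chromosomal order, with M_KO (red) left of M_WT (blue), bars at the group means, and triangles for the F pair. Men1 has the largest fold change shown (log2 -1.49), and among the 12 neighbours Arl2, Map4k2 and Rasgrp2 have no overlap.

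The role lists are given beside all genes tested, of which 51.5% had a positive fitted log2 fold change, 8.99% were higher and 7.14% lower without overlap. Of 20 tested kinases, phosphatases and G-protein regulators, 18 had a positive fitted log2 fold change, 7 were higher and 1 was lower without overlap, and the median was 0.23. The median transcript of these 20 was 57.4% G and C, which falls in the highest quartile of all genes, where 13.1% were higher without overlap. Besides Map4k2, Rasgrp2 and Arl2, the higher ones were Sipa1, Grk2, Pitpnm1 and Gpr137. Sipa1, which switches Rap1 off, was at 60.5, 74.7 and 77.4 CPM in M_KO and 58.0, 39.7 and 52.4 CPM in M_WT (log2 fold change 0.50, edgeR adjusted p = 0.478). Grk2, the receptor kinase that desensitises G-protein-coupled receptors, was at 216.3, 242.1 and 243.7 CPM in M_KO and 190.5, 170.5 and 193.2 CPM in M_WT (log2 fold change 0.34). The values of Grk2 in F_KO (214.9 CPM) and F_WT (224.8 CPM) were close.

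The only gene of this list that was lower without overlap was Mark2, a polarity kinase that acts on microtubule-associated proteins. It was lower in every M_KO library, with 118.8, 108.3 and 102.6 CPM in M_KO and 141.1, 136.6 and 135.7 CPM in M_WT (log2 fold change -0.33, SE 0.11, edgeR adjusted p = 0.474). In the F pair Mark2 was at 117.9 CPM in F_KO and 107.2 CPM in F_WT.

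Of 27 tested mitochondrial and metabolic genes, 6 were higher and 3 lower without overlap (median 0.07). Cpt1a, the carnitine palmitoyltransferase that admits long-chain fatty acids to mitochondria, was at 70.1, 101.8 and 104.6 CPM in M_KO and 57.5, 61.1 and 61.0 CPM in M_WT (log2 fold change 0.62, SE 0.17, edgeR adjusted p = 0.437). M_KO_5944 was nearest to the M_WT libraries. Acy3, an aminoacylase that acts on mercapturic acids, had the largest positive log2 fold change among the members, 1.11, at a low level of 2.78, 2.43 and 1.98 CPM in M_KO and 1.09, 0.85 and 1.37 CPM in M_WT.

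Slc25a45, a mitochondrial carrier, was at 17.4, 19.3 and 26.0 CPM in M_KO and 13.2, 14.0 and 14.7 CPM in M_WT. Aldh3b1, Carns1 and Ccs were also higher, with log2 fold changes of 0.37, 0.98 and 0.26, and 45.9% of the annotated exon bases of Carns1 are shared with another gene. The lower genes were Mrpl21, Slc3a2 and Fth1. Slc3a2, the CD98 heavy chain that carries amino-acid transporters to the surface, was at 358.6, 318.6 and 365.5 CPM in M_KO and 413.7, 483.1 and 441.0 CPM in M_WT (log2 fold change -0.36, edgeR adjusted p = 0.478).

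Mrpl21, a protein of the mitochondrial ribosome, was at 13.2, 12.4 and 16.3 CPM in M_KO and 16.6, 20.5 and 18.8 CPM in M_WT, so that M_KO_5642 and M_WT_5643 nearly met. Fth1 was at 3411.0, 2713.4 and 4180.9 CPM in M_KO and 5087.5, 4714.1 and 5615.2 CPM in M_WT (log2 fold change -0.58, SE 0.22, edgeR adjusted p = 0.483). Fth1 has many near-identical copies in the mouse genome and no source used here states how multi-mapping reads were treated, so its count is uncertain.

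Among 11 tested genes of immune signalling and secreted factors, 3 were higher and 0 lower without overlap (median 0.20). Lrp5, a Wnt co-receptor, was at 60.5, 69.9 and 46.8 CPM in M_KO and 34.2, 28.0 and 41.9 CPM in M_WT (log2 fold change 0.76, SE 0.21, edgeR adjusted p = 0.434). Unc93b1, which escorts nucleic-acid-sensing Toll-like receptors to endosomes, was at 438.2, 395.3 and 440.2 CPM in M_KO and 340.8, 337.3 and 374.0 CPM in M_WT (log2 fold change 0.27). Fibp had a log2 fold change of 0.20. Ltbp3, which anchors latent TGF-beta, had a log2 fold change of 0.39 with overlapping groups.

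Of 15 tested transcription and chromatin genes, 3 were higher and 0 lower without overlap (median 0.10), and all 3 differed little. Kmt5b, a histone H4 methyltransferase, was at 92.0, 94.8 and 92.6 CPM in M_KO and 87.8, 77.4 and 85.0 CPM in M_WT (log2 fold change 0.16). Kdm2a, a histone demethylase, and Mta2, a subunit of the NuRD remodelling complex, had log2 fold changes of 0.13 and 0.11, and Brms1, a partner of histone deacetylases, one of 0.18 with overlap.

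Of 10 tested genes of the cytoskeleton and adhesion, 2 were higher and 0 lower (median 0.19). Ehbp1l1, a partner of Rab8 in membrane transport, was at 142.6, 169.7 and 180.3 CPM in M_KO and 120.9, 109.2 and 124.1 CPM in M_WT, and at 153.5 CPM in F_KO and 127.0 CPM in F_WT (log2 fold change 0.47 in M, SE 0.13, edgeR adjusted p = 0.445). The calcium-dependent protease gene Capn1 was at 50.6, 47.6 and 43.4 CPM in M_KO and 37.7, 41.4 and 41.3 CPM in M_WT (log2 fold change 0.23). Cfl1 had a log2 fold change of -0.17 with overlapping groups.

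Genes of vesicle traffic, autophagy and the lysosome gave 2 higher and 1 lower of 15 (median -0.03). Snx15, a sorting nexin, was at 15.0, 13.7 and 19.6 CPM in M_KO and 8.60, 11.2 and 13.1 CPM in M_WT (log2 fold change 0.55), and Vps51, a tether of endosome-to-Golgi transport, had a log2 fold change of 0.37. Snx32, another sorting nexin, was lower, with 2.67, 3.41 and 3.12 CPM in M_KO and 5.98, 3.89 and 4.16 CPM in M_WT, and with 2.65 CPM in F_KO and 5.44 CPM in F_WT (log2 fold change -0.61 in M, edgeR adjusted p = 0.524).

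Of 11 tested genes of chaperones, ubiquitin and cell death, 1 was higher and 1 lower (median -0.03). Stip1, the co-chaperone that links Hsp70 to Hsp90, was at 123.3, 82.4 and 94.0 CPM in M_KO and 156.9, 143.6 and 134.7 CPM in M_WT (log2 fold change -0.54, SE 0.17, edgeR adjusted p = 0.474). M_KO_5944 came nearest to M_WT. Dnajc4, of the Hsp40 family, had a log2 fold change of 0.38.

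The lists of RNA processing and translation (14 tested, median 0.01) and of DNA replication, repair and mitosis (9 tested, median -0.24) held 0 members without overlap. In the RNA list, Fau had a log2 fold change of -0.04, Eif1ad, a factor related to translation initiation, one of -0.35, and the tRNA phosphotransferase gene Trpt1 one of 0.71 at 0.56 to 1.31 CPM. In the DNA list, Cdca5, which protects sister-chromatid cohesion, was at 5.34, 7.45 and 6.83 CPM in M_KO and 4.0, 11.7 and 13.7 CPM in M_WT (log2 fold change -0.59), so that M_WT_5643 was the lowest library of all 6. Rad9a, of the DNA damage checkpoint clamp, had a log2 fold change of -0.32 with overlap.

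Of the 29 tested members in no role list, 6 were higher and 1 lower. Ccdc85b, a small coiled-coil protein, was at 6.47, 8.02 and 8.38 CPM in M_KO and 3.71, 4.64 and 5.38 CPM in M_WT, and at 6.74 CPM in F_KO and 5.05 CPM in F_WT (log2 fold change 0.73 in M, SE 0.23, edgeR adjusted p = 0.474). Ankrd13d, an ankyrin-repeat protein that binds ubiquitin, was at 3.86, 5.07 and 4.07 CPM in M_KO and 3.66, 1.92 and 2.49 CPM in M_WT (log2 fold change 0.68). The others, Pcnx3, Eml3, Zdhhc24 and B4gat1, had log2 fold changes between 0.36 and 0.40, and B4gat1 shares 85.3% of its exon bases with another gene.

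Pcna-ps2, which the files class as protein-coding although its symbol is that of a pseudogene of the replication clamp Pcna, was the DESeq2 call. It was at 0.57, 0.36 and 0.67 CPM in M_KO and 14.1, 0.75 and 1.37 CPM in M_WT, and at 11.6 CPM in F_KO and 20.8 CPM in F_WT. Its log2 fold change of -3.32 rested on M_WT_5643 and was -0.97 without it. As a near copy of Pcna its count is uncertain.

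**Figure D4:**
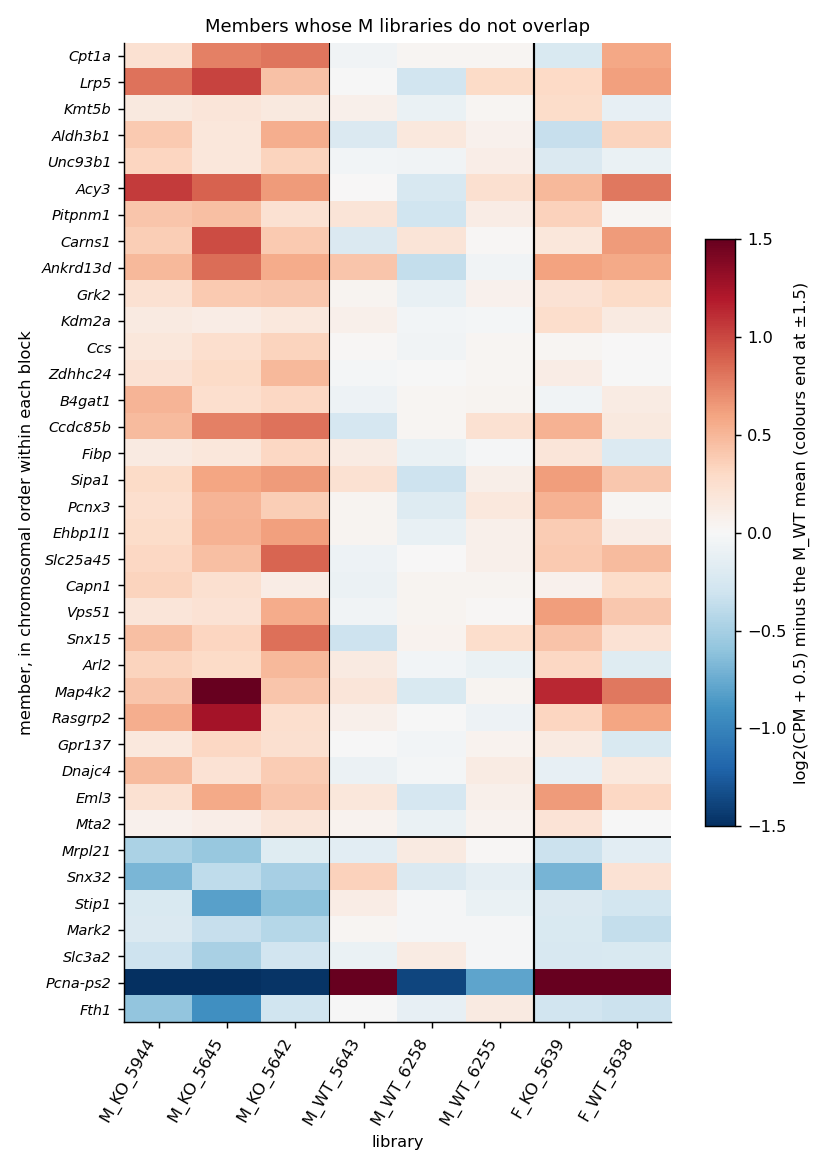
Each row is a member whose M_KO libraries all lay above (upper block, 30 genes) or all below (lower block, 7 genes) the M_WT libraries, each column a library, and the colour gives log2(CPM + 0.5) minus the mean of M_WT. The rows were chosen for the M contrast, so the separation of the first 6 columns is given by the choice, while the F columns on the right were not used in it.

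The single F libraries, which took no part in choosing these genes, gave a mixed picture. Of the 30 members that were higher in every M_KO library, 18 were higher and 12 lower in F_KO than in F_WT, with a median log2 difference of 0.13. Over all 1227 genes with the same M pattern the counts were 702 higher and 525 lower. Of the 7 lower members, 3 were higher and 4 lower in F_KO, and of all 975 genes with that pattern 429 were higher and 546 lower. In the F pair itself, 8 of 161 tested members differed by more than 2-fold, 6 higher and 2 lower in F_KO, beside 10.4% of all genes tested.

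With all 8 libraries together, 12 members (7.45%) were higher in each of the 4 KO libraries than in each of the 4 WT libraries, beside 3.33% of all genes tested, and 3 (1.86%) were lower, beside 2.35%. Such genes must already lack overlap in M, so these shares are not separate from the M counts. Of the 30 members higher in M, 12 kept the pattern, beside 455 of the 1227 genes higher in M among all genes tested. The 12 were Kmt5b, Pitpnm1, Ccs, Zdhhc24, Ccdc85b, Fibp, Pcnx3, Ehbp1l1, Snx15, Arl2, Gpr137 and Mta2, and the 3 were Mrpl21, Snx32 and Slc3a2. Neither Map4k2 nor Rasgrp2 was among them. The edgeR fit of genotype over the 8 libraries with the letter as a term called 0 of 159 members at an adjusted p under 0.05 (beside 0.00727% of all genes) and 18 at an unadjusted p (beside 9.48%), and the smallest edgeR adjusted p was 0.484.

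The window is rich in G and C, and the M contrast moved with G and C content across all genes. The median transcript of a tested member was 55.8% G and C, against 49.1% for all genes tested, and 109 of the 161 members fell in the highest quartile of all genes. Across all genes, the share higher without overlap was 5.87% in the lowest quartile, 7.10% and 9.92% in the middle quartiles and 13.1% in the highest, while the share lower was 10.2%, 8.25%, 5.90% and 4.20%. Of the members in the highest quartile, 22 of 109 (20.2%) were higher and 1 was lower.

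After a correction of each library for G and C content, chosen after these values were seen, 19 members (beside 8.03% of all genes) were higher and 12 (beside 7.39%) were lower without overlap. The median log2 fold change of the members was then 0.01. The bands at 0.1 to 0.5 and 0.5 to 1 Mb then had medians of -0.14 and -0.10, and the band within 0.1 Mb had 0.19, again the value of Cdc42bpg. Map4k2 and Rasgrp2 had corrected log2 fold changes of 0.82 and 0.73.

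**Figure D5:**
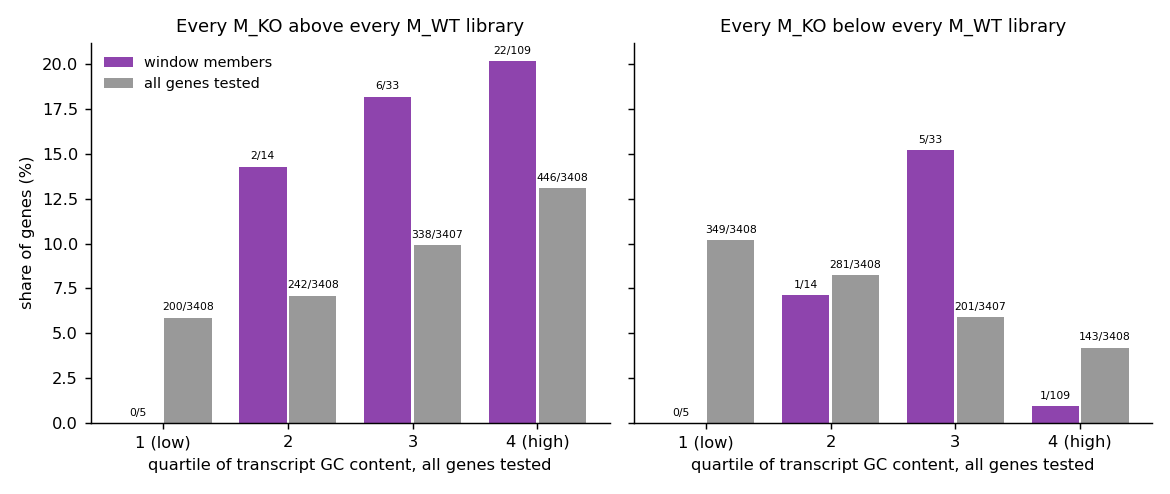
Bars give the percentage of genes whose M_KO libraries all lay above (left) or all below (right) the M_WT libraries, by quartile of transcript G and C content, for window members (purple) and all genes tested (grey), with counts over the bars. In the highest quartile the members stand at 20.2% and all genes at 13.1% higher.

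Neighbouring genes of the window often overlap. Of the tested members, 79 share exon bases with another gene in GENCODE M21, and among the 82 that do not, 17 were higher (20.7%) and 5 lower (6.10%) without overlap. Among the 79 that do, 13 were higher (16.5%) and 2 lower (2.53%). Both stand beside 8.99% higher and 7.14% lower of all genes tested. The part of shared exon bases in these counts was not tested. Map4k2 shares 1.4% and Rasgrp2 2.1% of exon bases with another gene.

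The partners of menin elsewhere in the genome were also read as a list. Of 10 genes (Kmt2a, Kmt2b, Ash2l, Rbbp5, Wdr5, Dpy30, Hcfc1, Hcfc2, Psip1 and Jund), 0 had libraries that did not overlap, beside 16.1% of all genes tested. A list of 10 genes is too short to tell 0 from that share. The median log2 fold change was 0.03. Jund, a transcription factor bound by menin, was at 59.3 ± 10.1 CPM in M_KO and 50.6 ± 5.30 CPM in M_WT (SD, n = 3 each; log2 fold change 0.23, edgeR adjusted p = 0.666).

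Among macrophage markers, the summed level of 8 genes was between 17972.6 and 20755.6 CPM in M_KO, between 20845.5 and 32263.5 CPM in M_WT, and 24624.7 CPM in F_KO and 24318.3 CPM in F_WT, so that every M_KO sum lay below every M_WT sum. Most of the sum was Lyz2, which was at 9094.8, 11576.9 and 11402.4 CPM in M_KO and 20640.4, 14224.4 and 12897.0 CPM in M_WT. The other 7 markers summed to between 7213.3 and 9178.6 CPM in M_KO and between 7914.1 and 11623.0 CPM in M_WT, which overlap. Csf1r was higher in every M_KO library, with 1829.0, 2057.6 and 2075.2 CPM in M_KO and 1482.2, 1235.7 and 1557.9 CPM in M_WT. All 8 were detected in every library. The 5 dendritic cell markers summed to between 12.1 and 15.8 CPM in M_KO, between 23.6 and 40.9 CPM in M_WT, 18.7 CPM in F_KO and 21.6 CPM in F_WT. Of these, Cd209a was at most 0.16 CPM in M_KO, against 0.10, 15.3 and 14.5 CPM in M_WT_5643, M_WT_6258 and M_WT_6255. Only Zbtb46 was lower in every M_KO library (5.34, 7.55 and 6.28 CPM in M_KO, 11.1, 9.11 and 7.82 CPM in M_WT). Xcr1 was highest in M_KO_5642 among the M libraries (2.16, 1.86 and 4.94 CPM in M_KO, 2.37, 2.77 and 2.39 CPM in M_WT). Mast cell markers summed to between 1.58 and 22.4 CPM in M_KO and between 2.99 and 16.7 CPM in M_WT, and to 5.25 CPM in F_KO and 2.59 CPM in F_WT, with Cpa3, Cma1, Mcpt4 and Tpsb2 at 0 in M_KO_5642. Neutrophil markers summed to between 4.66 and 9.82 CPM in M_KO and between 4.64 and 8.70 CPM in M_WT, and to 16.4 CPM in F_KO and 3.41 CPM in F_WT. Eosinophil markers reached at most 2.61 CPM, with Prg2 and Epx at 0 in every M library. T and NK cell markers summed to at most 0.91 CPM and mesothelial markers to at most 2.5 CPM in any library. The part of cell composition in the small differences of the window was not tested.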

How the data were processed

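NEBNext Ultra RNA libraries were used, per the labels' protocols. The builds GRCm38 and mm10 and the tools DESeq2 1.16.1, featureCounts 1.5.0-p3 and HISAT2 2.0.5 are named in the submitters' processing notes. No source used here gives the strand setting, the annotation release or the treatment of multi-mapping reads. Gene rows of the deposited count table are whole, unnormalized reads. The deposited FPKM values were scaled by the authors to gene length and library size. Log2 fold changes and p-values of the authors' deposited table were used only where named, and 16 value columns of its comparison tables were not used.

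M_KO was tested against M_WT on counts by the quasi-likelihood method of edgeR 4.0.16 under R 4.3.3 (TMM, default expression filter, Benjamini-Hochberg over 13646 genes, threshold 0.05, biological coefficient of variation 0.30, residual degrees of freedom 4). Standard errors came from the F statistic. Total counts were 18206427 to 22853583, and a count of 0 allows 3 counts, 0.119 to 0.170 CPM, counting error only. Groups came from titles. The F pair was compared without a test, by log2 CPM with a prior count of 2. GC content came from the longest GENCODE M21 transcript of each gene, and shared exon bases from the GENCODE M21 exons. Alternatives were DESeq2 1.42.0, RLE and upper-quartile scaling, other filters, limma 3.58.1 on log2(FPKM + 1), all 8 libraries, a covariate for numbers beginning with 56, leaving out each library, and, chosen after seeing the data, GC correction (lowess span 0.3) and members without shared exons.

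The members and lists were chosen with earlier results of these data known. Named genes are the 6 nearest tested members a side, members called by edgeR or DESeq2, up to 10 higher and 10 lower members without overlap and a mean log2 CPM of at least 1, 2 per role list by p, and the 3 highest in FPKM. Other members that did not overlap are named from the count. One B cell marker of the list is not reported here and stayed out of the sums.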

Additional observations from a re-analysis of the deposited data

Results flagged for a closer look

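This list is limited to the 39 genes named by rule. In 6 of them every M_KO library moved one way from every M_WT library, while the single F_KO library moved the other way from F_WT. For these 6 the 95% exact interval of the F ratio excluded 1 (counting error only). An opposite sign in F was common across all genes tested. Of the 1227 genes higher in every M_KO library, 525 were lower in F_KO. Of the 975 lower in every M_KO library, 429 were higher in F_KO. The share of all genes with such an interval is not given here, so nothing is drawn from the count of 6. Acy3, Slc25a45, Dnajc4 and Stip1 also had the opposite sign in the F pair, but with intervals that included 1. Some members outside the 39 moved alike. Aldh3b1 (F ratio 0.619, 95% exact interval 0.56 to 0.683), Unc93b1 (0.923, 0.892 to 0.954) and Grk2 (0.956, 0.918 to 0.995) were among these. Carns1 also had the opposite sign in the F pair, with an interval that included 1 (0.29 to 1.19). The difference between the M and F contrasts was not tested for any of these genes, and F has 1 library per genotype. Cpt1a was higher in M_KO and had an F_KO minus F_WT log2 difference of -0.81, with 50.9 CPM in F_KO and 89.5 CPM in F_WT (ratio 0.568, 95% exact interval 0.527 to 0.612). Lrp5 was higher in M_KO and had an F difference of -0.31. Rasgrp2 was higher in M_KO and had an F difference of -0.27. Capn1 was higher in M_KO and had an F difference of -0.20. Mark2 was lower in M_KO and had an F difference of 0.14. Fth1 was lower in M_KO and had an F difference of 0.03, with 4186.4 CPM in F_KO and 4093.5 CPM in F_WT.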

How the results depend on the processing

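No paired analysis was made, because no label gives a litter, batch or day by which libraries could be paired. DESeq2 called 1 member at an adjusted p under 0.05, and edgeR called 0 under every scaling, filter, covariate and left-out library run. With 1 library left out at a time, DESeq2 called Cpt1a, Batf2 and Stip1 (without M_KO_5944) and Lrp5, Rasgrp2 and Fth1 (without M_KO_5642). It called Cdca5 without M_WT_5643, Pcna-ps2 without M_WT_6258 or M_WT_6255, and 0 members without M_KO_5645. The share of all genes called in each of these runs was not counted, so these calls have no background to stand beside and nothing is drawn from them. Men1 passed with DESeq2 (log2 fold change -1.5), as did Pcna-ps2 (-3.35). The members at an unadjusted edgeR p under 0.05 numbered 12 with the covariate for numbers beginning with 56 (beside 5.42% of all genes) and 11 to 18 with one library left out (beside 4.90% to 12.4%). Higher members without overlap numbered 12 over all 8 libraries (beside 3.33% of all genes) and 19 after GC correction (beside 8.03%). They numbered 17 among the 82 members without shared exon bases (beside 8.99%), and 34 to 44 with one library left out (beside 11.9% to 16.3%). Lower ones numbered 3 over all 8 libraries (beside 2.35%), 12 after GC correction (beside 7.39%) and 10 to 20 with one library left out (beside 9.98% to 15.1%). Fewer libraries make non-overlap easier, and more make it harder. The median log2 fold change of the members was 0.02 to 0.09 with one library left out and 0.01 after GC correction. By band, it was -0.14 at 0.1 to 0.5 Mb after GC correction. At 0.5 to 1 Mb it was -0.04 to 0.08 with one library left out and -0.10 after GC correction. Beyond 1 Mb it was 0.08 to 0.16 and 0.06. Of 583 values for the 39 named genes, 564 kept their direction and side of the threshold and 18, in 7 genes, changed sign. Fau was 0.05 over all 8 libraries and 0.10 without M_WT_5643. Batf2 ran from -2.01 without M_KO_5944 to 0.02 without M_KO_5642. Ppp2r5b was 0.05 over all 8 libraries. Sf1 was 0.01 with upper-quartile scaling, 0.03 over all 8 libraries, 0.00 without M_KO_5944 or M_WT_6255 and 0.06 without M_KO_5642. Pygm was -0.01 with the covariate, and -0.01 (without M_KO_5645) to 0.98 (without M_WT_5643) with one library left out. Rps6ka4 was -0.08 without M_KO_5944 or M_WT_6258, -0.04 without M_KO_5642, 0.18 without M_KO_5645 and -0.10 after GC correction. Ccdc88b was -0.21 without M_KO_5944, -0.14 without M_WT_6258, 0.24 without M_WT_6255 and -0.10 after GC correction. The cause of these changes was not tested.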
